A study of Homo sapiens with 6 samples.

Results

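The expression of 40 interferon response genes was examined in the human colorectal cancer line SW480 after knockdown of PCYT2 by RNA interference. PCYT2 makes CDP-ethanolamine, the precursor from which cells build the membrane phospholipid phosphatidylethanolamine. Bulk RNA-Seq libraries came from 3 groups of 2 libraries each. The control group is labelled shNT, and cells of the other groups carried hairpin shPcyt2-1 or shPcyt2-2 against PCYT2. According to the methods of the study, PCYT2 hairpins were cloned into the pLKO.1 lentiviral vector and infected cells were selected with puromycin. Whether shNT cells were treated in the same way is not spelled out there. Uninfected cells and cells given interferon were not analysed here. Levels common to all 3 groups cannot be split into a basal level and a response to infection or to hairpins as such. The 40 genes were a list chosen for function, from the receptor chain down to antiviral effectors, out of 19746 genes in the series. All 40 were matched by Ensembl identifier through GENCODE release 29 and were listed in at least 1 library. A further 72 genes of interferon production, RNA sensing, signaling and RNA interference were examined beside them. The question was whether either hairpin moved these genes as a group, as a general antiviral response would.

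Type I interferons bind a receptor that works through the kinases JAK1 and TYK2, which phosphorylate transcription factors, STAT2 among them. A complex that holds STAT2 and IRF9 binds an interferon-stimulated response element (ISRE) in the promoters of antiviral genes, while interferon gamma acts through a shorter gamma-activated site (GAS). Double-stranded RNA in the cytoplasm, seen by sensors such as DDX58 (RIG-I) and IFIH1 (MDA5), starts interferon production through TBK1 and IRF3. Short hairpin RNA has been studied as a possible trigger of the same route.

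PCYT2, the targeted gene (ENSG00000185813, chromosome 17 of GRCh38, 81900965 to 81911464), was at 11.6 and 13.8 FPKM with shNT, at 7.11 and 7.36 with shPcyt2-1 and at 6.71 and 6.18 with shPcyt2-2. FPKM is a level per kilobase of transcript, scaled to library size. Knockdown and shNT libraries did not overlap, with less PCYT2 RNA after knockdown. It changed by -0.73 (SE 0.10, limma adjusted p = 0.00205) on the log2 scale with shPcyt2-1 and by -0.88 (SE 0.10, limma adjusted p = 0.00261) with shPcyt2-2. All fold changes here are differences on the log2(FPKM + 1) scale. This scale understates changes, more so the lower the level. The shrinkage is strong below about 1 FPKM and still present at several FPKM. A gene was called changed at a limma adjusted p under 0.05 over all 12756 tested genes. With 2 libraries a group, groups that do not overlap are common, at 69% of all tested genes for shPcyt2-1 against shNT, 57.5% for shPcyt2-2 against shNT, 67.3% for the hairpins against each other and 30.2% for all knockdown libraries against shNT. Where libraries are said below to lie apart, this is a description beside the limma test.

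Interferon response genes were called in both directions with shPcyt2-1 and in the upward direction with shPcyt2-2. The group as a whole was not tested. Of the 40 genes, 35 reached the mean of 0.5 FPKM needed for a test. With shPcyt2-1, 4 rose (ISG20, SAMD9, TRIM25 and JAK1) and 4 fell (IFITM1, IFITM2, IFITM3 and IFI6), while 26.7% of all tested genes were called, 16.5% higher and 10.1% lower. The called members made up 22.9% of the 35. With shPcyt2-2, 5 rose (IFITM2, UBE2L6, SP100, IFI6 and JAK1) and 0 fell, which is 14.3% of the 35 against 12.4% of all tested genes, 7.69% higher and 4.74% lower. With both directions merged, the members' share was near that of all genes, while for higher calls with shPcyt2-2 it was 14.3% beside 7.69%. Without regard to calls, 17 of the 35 were above 0 and 18 below with shPcyt2-1, and 26 above and 9 below with shPcyt2-2, where 59.8% and 58.1% of all tested genes were above 0. Without adjustment 12 and 11 of the 35 had a p under 0.05, beside 5211 and 3971 of the 12756 genes. Over the 35, the median change was -0.01 (shPcyt2-1) and 0.12 (shPcyt2-2) on the log2 scale, beside medians of 0.07 and 0.04 over all tested genes. Since libraries are scaled as deposited, the direction of the bulk of genes depends on the scaling. After median-ratio scaling 49.9% of all genes were above 0 with shPcyt2-2 instead of 58.1%, and the median with shPcyt2-1 went from 0.0669 to 0.000221. The split of all called genes was then 1420 higher and 1758 lower with shPcyt2-1, against 2109 and 1291 as deposited. With shPcyt2-2 it was 764 and 880, against 981 and 604. Member calls were 4 higher and 4 lower with shPcyt2-1 and 4 higher and 0 lower with shPcyt2-2 under that scaling. The call count with shPcyt2-2 depended on single libraries, falling to 0 without shPcyt2-2 replicate 1, to 2 without shPcyt2-2 replicate 2 and to 1 without shNT replicate 2. Calls over all genes fell too in these fits, to 0.981%, 5.51% and 3.15%. The count with shPcyt2-1 was 4 without shPcyt2-1 replicate 1 and 5 without shNT replicate 2, where 9.1% and 13.6% of all genes were called.

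**Figure D1:**
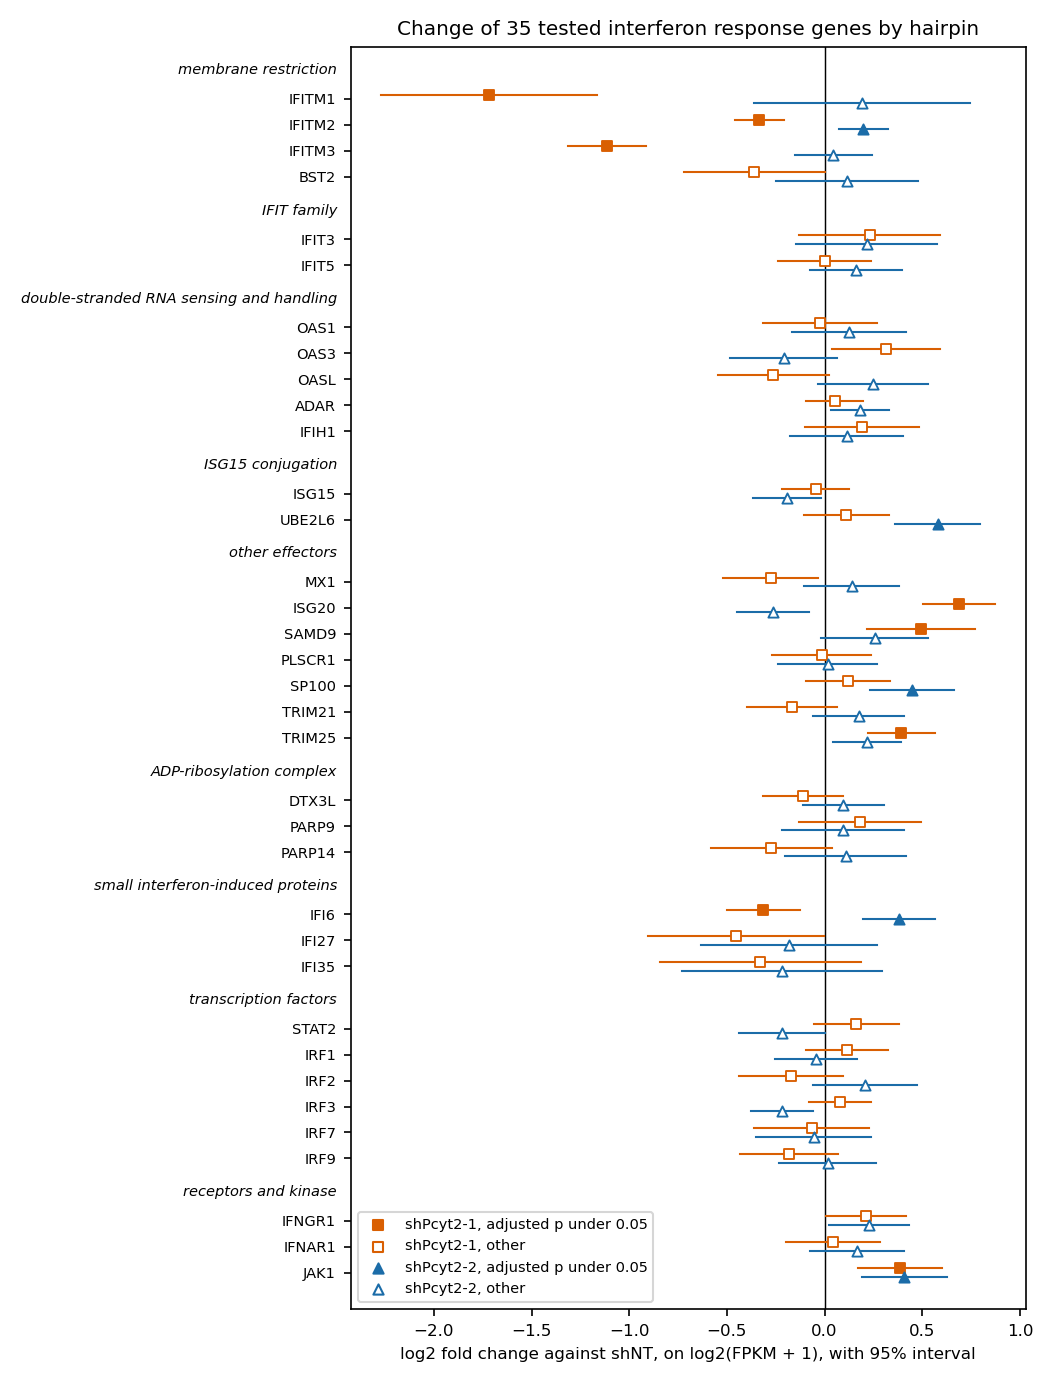
Log2 fold change against shNT of the 35 tested members, on the log2(FPKM + 1) scale, for shPcyt2-1 (squares) and shPcyt2-2 (triangles), with 95% intervals from limma and filled marks for a limma adjusted p under 0.05. IFITM1 and IFITM3 stand far to the left with shPcyt2-1, at -1.72 and -1.11, and close to 0 with shPcyt2-2, and most other members lie within 0.5 of 0.

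Both comparisons share the shNT libraries, so their values are set side by side and not correlated. JAK1 was the 1 member called in the same direction with both hairpins, where 3.09% of all tested genes were called higher with both and 1.29% lower with both. IFI6 and IFITM2 were called in opposite directions, as were 0.996% of all genes. The remaining calls were made with 1 hairpin alone, and 25 of the 35 tested members were called with neither.

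The members differed widely in level. IFITM2, ISG15 and IRF3 had a mean of at least 50 FPKM over the 6 libraries, 15 members lay between 5 and 50, 17 between 0.5 and 5, and 5 (IFIT1, IFIT2, OAS2, USP18 and XAF1) under 0.5. The low end held genes that are among the most strongly induced by interferon in many cell types, such as the IFIT genes, and these were low in all 6 libraries.

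**Figure D2:**
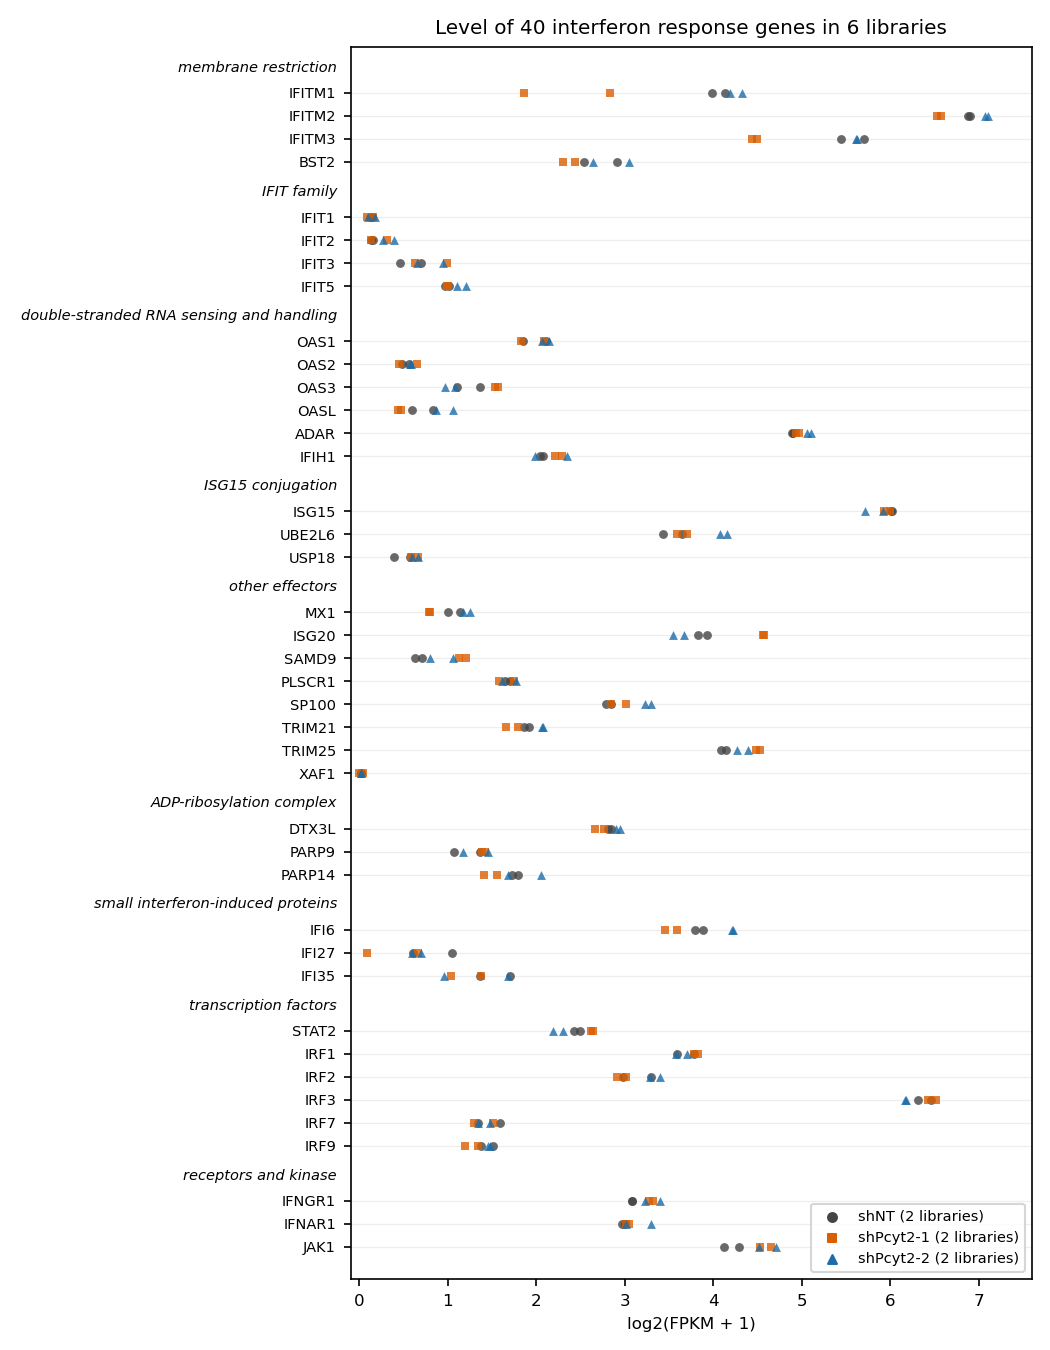
Level of each of the 40 members in each of the 6 libraries as log2(FPKM + 1), grouped by role, with circles for shNT, squares for shPcyt2-1 and triangles for shPcyt2-2. The 3 groups overlap or nearly touch for most genes, while shPcyt2-1 stands apart to the left for IFITM1 and IFITM3 and to the right for ISG20.

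The promoter sequences show which members carry the letters of an ISRE near their start. RefSeq promoter windows of GRCh38.p14, from 250 bases before to 50 after the annotated start, were held for 32 members, with 47 windows in all. The missing ones were IFITM2, IFIT2, OAS2, OASL, USP18, IRF2, IRF3 and IRF7. The ISRE letters, written as GAAA, any 2 bases and GAAA and searched on both strands, were found in 23 of the 47 windows (48.9%, 19 members) and in 3.57% of all 35116 windows of that length. The GAS letters TTCNNNGAA were found in 12 of the 47 (25.5%, 10 members) and in 7.66% of all windows. Since TTC and GAA can fall within or beside a GAAA repeat, matches to the 2 patterns can overlap. Below are 100 bases around the matches of 6 members, 4 of which were among those that differed most between the hairpins and 2 of which had no call, read 5′ to 3′ along the gene, with ISRE matches in capitals on whichever strand they fell.
IFITM1 (chr11:313972-314071, plus strand): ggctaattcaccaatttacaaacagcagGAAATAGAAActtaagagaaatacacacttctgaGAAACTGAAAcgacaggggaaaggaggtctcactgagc
IFITM3 (chr11:320850-320949, minus strand): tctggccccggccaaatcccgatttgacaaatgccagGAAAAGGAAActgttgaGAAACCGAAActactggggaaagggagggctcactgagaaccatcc
IFI6 (chr1:27672263-27672362, minus strand): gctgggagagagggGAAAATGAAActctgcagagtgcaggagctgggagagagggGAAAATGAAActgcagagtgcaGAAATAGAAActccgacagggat
ISG20 (chr15:88638902-88639001, plus strand): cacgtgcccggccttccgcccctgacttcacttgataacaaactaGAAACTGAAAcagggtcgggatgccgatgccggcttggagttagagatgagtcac
ISG15 (chr1:1013342-1013441, plus strand): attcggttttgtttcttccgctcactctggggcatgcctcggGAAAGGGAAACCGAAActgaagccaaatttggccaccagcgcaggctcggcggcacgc
IFIT1 (chr10:89392468-89392567, plus strand): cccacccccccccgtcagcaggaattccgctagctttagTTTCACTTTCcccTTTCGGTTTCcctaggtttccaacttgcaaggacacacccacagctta
IFITM1, IFITM3 and IFI6 fell with shPcyt2-1, ISG20 rose with it, and ISG15, which was not called, and IFIT1, too low for the test, are shown as members with the same letters. IFIT1 carries them on the opposite strand. Calls went both ways among members with the letters. Among 18 tested members with ISRE letters in a window, 2 rose and 3 fell with shPcyt2-1 and 1 rose with shPcyt2-2. Among 12 tested members without them, 2 and 3 rose and 0 fell. Over all tested genes, 26.7% and 12.4% were called, and whether the letters go with calls was not tested. A match is a description of sequence only, and binding was not measured.

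With shPcyt2-1, IFITM1 and IFITM3 of the membrane restriction factors had the largest changes of the 35 members on the log2(FPKM + 1) scale. The IFITM proteins sit in endosomal and plasma membranes and hinder the fusion of enveloped viruses. IFITM1 (chromosome 11, 313506 to 315272) was at 16.6 and 14.8 FPKM with shNT, at 2.62 and 6.09 with shPcyt2-1 and at 17.2 and 19.0 with shPcyt2-2. The shPcyt2-1 libraries, though unequal between themselves, lay below all others. Their mean was 0.278 of that of shNT, and the log2 fold change was -1.72 (SE 0.24, 95% interval -2.27 to -1.16, limma adjusted p = 0.00237). It ranged from -2.20 to -1.23 over the alternatives and was called in each. With shPcyt2-2 it was 0.19 (95% interval -0.36 to 0.75, limma adjusted p = 0.629), and the 2 hairpins differed by 1.91 (limma adjusted p = 0.000881).

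IFITM3 (chromosome 11, 319669 to 327537) was at 42.5 and 51.1 FPKM with shNT, at 21.4 and 20.6 with shPcyt2-1 and at 47.9 and 48.3 with shPcyt2-2. The shPcyt2-1 libraries were far below the rest, and those of shPcyt2-2 lay between the shNT libraries. The log2 fold change was -1.11 (SE 0.09, limma adjusted p = 0.000301) with shPcyt2-1 and 0.04 (95% interval -0.15 to 0.24, limma adjusted p = 0.763) with shPcyt2-2. IFITM2 (chromosome 11, 307631 to 315272) was at 118 and 116 FPKM with shNT, at 91.5 and 93.8 with shPcyt2-1 and at 136 and 133 with shPcyt2-2. It fell by 0.33 (SE 0.06, limma adjusted p = 0.00406) with shPcyt2-1 and rose by 0.20 (SE 0.06, limma adjusted p = 0.0472) with shPcyt2-2. The last call was lost under 9 of 14 alternatives, with an adjusted p up to 0.198. The hairpins differed by 1.16 for IFITM3 (limma adjusted p = 8.36e-05) and by 0.53 for IFITM2 (limma adjusted p = 0.000361). IFITM1, IFITM2 and IFITM3 are neighboring paralogs with similar sequences. Exons of IFITM1 and IFITM2 overlap on the same strand in the annotation. Reads may thus have been split between these genes, and the separate values are uncertain. BST2 (tetherin), which holds budding virions at the cell surface, ranged from 3.92 to 7.24 FPKM and was not called in any comparison.

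The IFIT family, whose proteins bind foreign RNA ends and which is a usual first sign of an interferon response, stayed at or below about 1 FPKM. IFIT1 was at 0.102 and 0.0891 FPKM with shNT, at 0.116 and 0.0581 with shPcyt2-1 and at 0.0678 and 0.129 with shPcyt2-2. The groups overlapped fully. IFIT2 was at 0.110 and 0.0983 with shNT, at 0.244 and 0.0955 with shPcyt2-1 and at 0.312 and 0.202 with shPcyt2-2. Its shPcyt2-2 libraries were above both shNT libraries, at levels too low for the test. IFIT3 was at 0.624 and 0.375 with shNT, at 0.987 and 0.546 with shPcyt2-1 and at 0.922 and 0.565 with shPcyt2-2. The libraries of each group lay far apart, and the groups overlapped. In each group replicate 1 was the higher, and at each replicate number both hairpins were above shNT. The log2 fold change was 0.23 (95% interval -0.13 to 0.59, limma adjusted p = 0.309) with shPcyt2-1 and 0.22 (95% interval -0.15 to 0.58, limma adjusted p = 0.391) with shPcyt2-2. IFIT5 lay between 0.960 and 1.31 FPKM in all libraries.

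Genes that sense or handle double-stranded RNA were also not called with either hairpin. The OAS enzymes make 2′-5′ oligoadenylates, which switch on RNase L. OAS1 was at 2.59 and 3.31 FPKM with shNT, at 2.55 and 3.23 with shPcyt2-1 and at 3.17 and 3.41 with shPcyt2-2. The 3 groups overlapped, with changes of -0.02 (95% interval -0.31 to 0.27, limma adjusted p = 0.916) and 0.12 (95% interval -0.17 to 0.42, limma adjusted p = 0.55), whose signs depended on single libraries. IFIH1, the sensor of long double-stranded RNA, was at 3.21 and 3.10 with shNT, at 3.89 and 3.61 with shPcyt2-1 and at 4.10 and 2.97 with shPcyt2-2. The shPcyt2-1 libraries were both above shNT, while those of shPcyt2-2 lay on either side. The log2 fold change was 0.19 (95% interval -0.10 to 0.48, limma adjusted p = 0.29) and 0.11 (95% interval -0.18 to 0.40, limma adjusted p = 0.583).

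OAS3 was at 1.14 and 1.58 FPKM with shNT, at 1.95 and 1.90 with shPcyt2-1 and at 1.12 and 0.953 with shPcyt2-2. OASL, a relative that binds RNA without making oligoadenylates, was at 0.775 and 0.511 with shNT, at 0.349 and 0.384 with shPcyt2-1 and at 1.08 and 0.820 with shPcyt2-2. In both genes shNT lay between the hairpin groups, and the hairpins differed in opposite ways, by -0.52 for OAS3 (limma adjusted p = 0.0133) and by 0.51 for OASL (limma adjusted p = 0.0165). Both calls were lost without shPcyt2-1 replicate 1, that of OAS3 without shPcyt2-2 replicate 2 and that of OASL without shPcyt2-2 replicate 1, with adjusted p values of up to 0.0694 and 0.0817. OAS2 ranged from 0.365 to 0.566 FPKM and was not tested. ADAR, which edits adenosines in double-stranded RNA, ranged from 28.7 to 33.3 FPKM and was not called.

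ISG15, a ubiquitin-like protein that interferon induces strongly, was among the most abundant members and was not called. It was at 63.2 and 63.6 FPKM with shNT, at 59.9 and 62.9 with shPcyt2-1 and at 51.5 and 59.5 with shPcyt2-2. All knockdown libraries were below both shNT libraries, by a log2 difference of -0.05 (95% interval -0.22 to 0.13, limma adjusted p = 0.684) with shPcyt2-1 and -0.19 (95% interval -0.37 to -0.02, limma adjusted p = 0.127) with shPcyt2-2. UBE2L6, the conjugating enzyme that passes ISG15 to its targets, was at 9.77 and 11.5 with shNT, at 11.0 and 12.04 with shPcyt2-1 and at 16.9 and 15.8 with shPcyt2-2. The shPcyt2-2 libraries stood above all others, while shNT and shPcyt2-1 overlapped. The gene rose by 0.58 (SE 0.10, limma adjusted p = 0.0093) with shPcyt2-2, and the hairpins differed by 0.47 (limma adjusted p = 0.00779). Without shPcyt2-2 replicate 1 neither call held, and without shPcyt2-1 replicate 1 the second did not, with adjusted p values of up to 0.0897 and 0.0558 over all alternatives. USP18, which removes ISG15 and damps the receptor, ranged from 0.309 to 0.581 FPKM and was not tested.

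Among the other effectors, ISG20 is a 3′-5′ exonuclease that degrades single-stranded RNA. ISG20 (chromosome 15, 88636153 to 88656483) was at 14.2 and 13.1 FPKM with shNT, at 22.7 and 22.5 with shPcyt2-1 and at 10.7 and 11.8 with shPcyt2-2. The 3 groups did not overlap, with shPcyt2-1 highest and shPcyt2-2 lowest. ISG20 rose by 0.69 (SE 0.08, limma adjusted p = 0.00119) with shPcyt2-1. It was at -0.26 (95% interval -0.45 to -0.08, limma adjusted p = 0.065) with shPcyt2-2, and the hairpins differed by -0.95 (limma adjusted p = 0.000141).

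MX1, a dynamin-like GTPase that blocks influenza and other viruses, was at 1.20 and 0.998 FPKM with shNT, at 0.721 and 0.741 with shPcyt2-1 and at 1.37 and 1.24 with shPcyt2-2. The shPcyt2-1 libraries were lowest and those of shPcyt2-2 highest. Neither change against shNT was called, at -0.28 with shPcyt2-1 (limma adjusted p = 0.0882) and at 0.14 with shPcyt2-2 (limma adjusted p = 0.415), while the hairpins differed by 0.41 (limma adjusted p = 0.021). That call was lost without shPcyt2-1 replicate 1 or 2 or shPcyt2-2 replicate 1, with an adjusted p of up to 0.111. SAMD9, an antiviral factor against poxviruses, was at 0.543 and 0.634 with shNT, at 1.30 and 1.18 with shPcyt2-1 and at 1.08 and 0.733 with shPcyt2-2. Every knockdown library exceeded shNT, and the gene rose by 0.49 (SE 0.12, limma adjusted p = 0.0187) with shPcyt2-1, from a mean of 0.589 to 1.24 FPKM. The call was lost without either shNT library or without shPcyt2-1 replicate 1, with an adjusted p of up to 0.105. With shPcyt2-2 it was at 0.26 (95% interval -0.02 to 0.53, limma adjusted p = 0.186).

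TRIM25, the ubiquitin ligase that acts on RIG-I, was at 16.0 and 16.6 FPKM with shNT, at 22.1 and 21.3 with shPcyt2-1 and at 19.96 and 18.3 with shPcyt2-2. Its shNT libraries were the lowest of the 6. It rose by 0.39 (SE 0.08, limma adjusted p = 0.00745) with shPcyt2-1 and was at 0.22 (95% interval 0.05 to 0.39, limma adjusted p = 0.0904) with shPcyt2-2, and the call with shPcyt2-1 was lost without shPcyt2-1 replicate 1 (limma adjusted p = 0.0642). SP100, a component of nuclear bodies, was at 6.18 and 5.89 with shNT, at 7.10 and 6.20 with shPcyt2-1 and at 8.80 and 8.36 with shPcyt2-2. The shPcyt2-2 libraries were highest, a rise of 0.45 (SE 0.10, limma adjusted p = 0.0212), and the hairpins differed by 0.33 (limma adjusted p = 0.0325). The rise was not called without shNT replicate 2 or either shPcyt2-2 library, nor the difference without any 1 hairpin library, with adjusted p values of up to 0.121 and 0.251. TRIM21, an intracellular antibody receptor, was at 2.79 and 2.64 with shNT, at 2.47 and 2.15 with shPcyt2-1 and at 3.21 and 3.17 with shPcyt2-2. Its shNT libraries lay between those of the hairpins, which differed by 0.34 (limma adjusted p = 0.0369), a call lost without any 1 of the 4 hairpin libraries (adjusted p of up to 0.25). PLSCR1 ranged from 1.97 to 2.40 FPKM and was not called, and XAF1 was listed in 5 of the 6 libraries at no more than 0.029. Of the ADP-ribosylation complex, DTX3L ranged from 5.32 to 6.72 FPKM, PARP9 from 1.10 to 1.74 and PARP14 from 1.66 to 3.15, and none of the 3 was called in any comparison. DTX3L and PARP9 overlap on opposite strands, as do TRIM25 and DGKE, JAK1 and RAVER2, and IRF3 and BCL2L12, and whether counting used strand is not given in the sources used here, so reads of such pairs may have been shared.

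IFI6, a small membrane protein that interferon induces, moved in opposite directions with the hairpins. IFI6 (chromosome 1, 27666061 to 27672218) was at 12.8 and 13.7 FPKM with shNT, at 11.0 and 9.98 with shPcyt2-1 and at 17.5 and 17.6 with shPcyt2-2. No groups overlapped. It fell by 0.31 (SE 0.08, limma adjusted p = 0.0236) with shPcyt2-1 and rose by 0.38 (SE 0.08, limma adjusted p = 0.0214) with shPcyt2-2, a difference of 0.70 between them (limma adjusted p = 0.000613). The difference was called under every alternative. The fall was not called without shNT replicate 2 or either shPcyt2-1 library (adjusted p of up to 0.168), nor the rise without any 1 shNT or shPcyt2-2 library (adjusted p of up to 0.113). IFI27 ranged from 0.0637 to 1.07 FPKM and IFI35 from 0.939 to 2.26, with spreads between replicates as wide as between groups, and neither was called.

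The transcription factors of the pathway were not called against shNT with either hairpin. Between the hairpins 3 of the 6 were called, where 27.1% of all tested genes were. STAT2 was at 4.37 and 4.65 FPKM with shNT, at 5.22 and 5.12 with shPcyt2-1 and at 3.94 and 3.54 with shPcyt2-2. Here shNT lay between the hairpins, which differed by -0.38 (limma adjusted p = 0.0189), a call lost without either shPcyt2-1 library or shPcyt2-2 replicate 2 (adjusted p of up to 0.121). IRF9 was at 1.86 and 1.60 with shNT, at 1.28 and 1.53 with shPcyt2-1 and at 1.73 and 1.78 with shPcyt2-2. Both shPcyt2-1 libraries were below both shNT libraries and those of shPcyt2-2 lay between them, IRF9 being at -0.18 with shPcyt2-1 (limma adjusted p = 0.245) and at 0.02 with shPcyt2-2 (limma adjusted p = 0.946). IRF9 overlaps another protein-coding gene on the same strand in the annotation.

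IRF2, a factor that mostly represses interferon targets, was at 8.83 and 6.85 FPKM with shNT, at 6.51 and 7.09 with shPcyt2-1 and at 8.73 and 9.57 with shPcyt2-2. IRF3, which drives the first interferon transcripts once phosphorylated, was at 78.3 and 87.3 with shNT, at 90.1 and 84.7 with shPcyt2-1 and at 70.9 and 71.1 with shPcyt2-2. In both genes the shNT libraries overlapped those of shPcyt2-1, and shPcyt2-2 stood apart from shPcyt2-1, by 0.38 for IRF2 (limma adjusted p = 0.0415) and by -0.30 for IRF3 (limma adjusted p = 0.0138). Both calls were lost without shPcyt2-1 replicate 1 or either shPcyt2-2 library, and that of IRF2 also without shPcyt2-1 replicate 2, with the replicate block, without a variance trend and without the expression limit, with adjusted p values of up to 0.185 for IRF2 and 0.112 for IRF3. IRF1 ranged from 11.0 to 13.2 FPKM and IRF7 from 1.44 to 2.01.

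JAK1, the kinase shared by the type I, II and III receptors, was higher with both hairpins. JAK1 (chromosome 1, 64833229 to 64966504) was at 18.5 and 16.4 FPKM with shNT, at 24.2 and 22.0 with shPcyt2-1 and at 25.2 and 21.9 with shPcyt2-2. Again the shNT libraries were the lowest of the 6. The rise was 0.38 (SE 0.10, limma adjusted p = 0.0193) with shPcyt2-1 and 0.41 (SE 0.10, limma adjusted p = 0.028) with shPcyt2-2, and the difference between the hairpins was 0.02 (95% interval -0.19 to 0.24, limma adjusted p = 0.877). Without shNT replicate 2 neither rise was called, nor the first without shPcyt2-1 replicate 1 or the second without shPcyt2-2 replicate 1, with adjusted p values of up to 0.126 and 0.172. Both rises of JAK1 also lost their call without the expression limit, and that with shPcyt2-2 without a variance trend. The receptor chains IFNGR1, from 7.44 to 9.50 FPKM, and IFNAR1, from 6.85 to 8.80, were not called.

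Compared directly, shPcyt2-2 was above shPcyt2-1 in 10 members and below it in 4 at a limma adjusted p under 0.05, which is 14 of the 35, while 27.1% of all tested genes were called, 12.9% higher and 14.2% lower. The 10 were IFITM1, IFITM2, IFITM3, OASL, UBE2L6, MX1, SP100, TRIM21, IFI6 and IRF2, and the 4 were OAS3, ISG20, STAT2 and IRF3. The median difference was 0.13 over the members and -0.02 over all genes. The count of 14 fell to 5 without shPcyt2-1 replicate 1, to 9 without shPcyt2-1 replicate 2 and to 7 without shPcyt2-2 replicate 1, where 13.1%, 16.3% and 18% of all genes were called. IFITM1, IFITM2, IFITM3, IFI6 and ISG20 kept their calls in each of these fits. With the 4 knockdown libraries taken as a single group, 0 of the 35 members were called against 0.00784% of all genes by limma, and 4 had an unadjusted p under 0.05, as did 2128 of all 12756 genes. The mean of both hairpins from the fit with 3 groups, where the difference between hairpins does not enter the spread, gave 7 called members, 5 higher and 2 lower, and called 2142 of all genes (16.8%).

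The further pathway genes were followed from ligand to target. Of 8 interferon genes, IFNB1, IFNA1, IFNK, IFNL1, IFNL2, IFNL3 and IFNG were listed in no library, and IFNE reached at most 0.0578 FPKM. Of the induced genes, IFI44, IFI44L, CXCL9 and CXCL10 were listed in no library, and RSAD2, CMPK2, CXCL11 and GBP1 were at no more than 0.0401 FPKM in any. These 8 are textbook interferon targets. A gene that is not listed was set to 0, and since none of the 13 mitochondrial protein-coding genes was listed either, an unlisted gene is not shown to be silent. In all, 24 of the 28 induced genes on this list were listed and 13 tested, and some were abundant, with means of 126 FPKM for LGALS3BP, 20.9 for PARP12 and 7.63 for SAMHD1. Depth is not recorded in the files, so no detection limit can be given.

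Of the 72 further genes, 61 were listed and 42 tested. With shPcyt2-1, 7 rose and 2 fell, 21.4% of the 42, and with shPcyt2-2, 4 rose and 0 fell, 9.52% of them. The 7 include JAK2, which reached the limit of 0.5 FPKM through its shPcyt2-1 level and whose call is set aside below. With both directions merged, 26.7% and 12.4% of all tested genes were called. For higher calls alone, the 7 and 4 of 42 stand beside 16.5% and 7.69% of all tested genes.

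Of the further RNA sensors, DDX58, DHX58 and TLR3 were under 1 FPKM in all libraries and EIF2AK2 was not. DDX58 was at 0.540 and 0.404 FPKM with shNT, at 0.454 and 0.434 with shPcyt2-1 and at 0.823 and 0.706 with shPcyt2-2, where both libraries were above the other 4. DHX58, its regulator, ranged from 0.162 to 0.381 and TLR3, the endosomal sensor, from 0.130 to 0.411. EIF2AK2 (PKR), the kinase that stops translation on double-stranded RNA, was at 7.17 and 6.62 with shNT, at 8.66 and 8.42 with shPcyt2-1 and at 8.14 and 6.35 with shPcyt2-2. Its shPcyt2-1 libraries were highest, and neither DDX58 nor EIF2AK2 was called.

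Among adaptors, kinases and receptor chains, TICAM1 was called with shPcyt2-1, and TBK1 and IL10RB with shPcyt2-2. TICAM1, the adaptor of TLR3, was at 9.58 and 10.2 FPKM with shNT, at 6.07 and 6.99 with shPcyt2-1 and at 8.14 and 8.55 with shPcyt2-2. All knockdown libraries were below shNT, and it fell by 0.54 with shPcyt2-1 (SE 0.09, limma adjusted p = 0.00518) and was at -0.22 with shPcyt2-2 (95% interval -0.44 to -0.01, limma adjusted p = 0.149). TBK1, the kinase of IRF3, was at 5.51 and 4.56 with shNT, at 4.49 and 3.73 with shPcyt2-1 and at 8.87 and 7.70 with shPcyt2-2. The shPcyt2-2 libraries were highest and those of shPcyt2-1 lowest, with a rise with shPcyt2-2 of 0.62 (SE 0.12, limma adjusted p = 0.016) and a difference between the hairpins of 0.86 (limma adjusted p = 0.00141). IL10RB, a chain of the type III receptor, rose by 0.39 with shPcyt2-2 (limma adjusted p = 0.0149), from a mean of 14.2 to 19.0 FPKM. JAK2 had means of 0.386 FPKM with shNT, 0.750 with shPcyt2-1 and 0.524 with shPcyt2-2. It reached the limit of 0.5 FPKM over the 6 libraries through its shPcyt2-1 level, so nothing is read from its call there, at 0.34 (limma adjusted p = 0.0447, and 0.0332 without the limit). The rises of TBK1 and IL10RB were not called without the expression limit, nor without shNT replicate 2 or shPcyt2-2 replicate 1. The call of JAK2 was lost without any 1 shNT or shPcyt2-1 library, with the replicate block or with median-ratio scaling, and that of TICAM1 without shPcyt2-1 replicate 1 (limma adjusted p = 0.0502).

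Of the RNA interference machinery, which processes and uses hairpins, single genes were called. With shPcyt2-1, 3 of 9 rose (AGO1, DROSHA and PRKRA), where 16.5% of all genes were called higher, and with shPcyt2-2, 1 of 9 (DICER1), where 7.69% were. Their median change was 0.32 with shPcyt2-1 and 0.08 with shPcyt2-2, beside the 0.07 and 0.04 of all tested genes. DICER1, which cuts hairpins into short RNA, was at 6.01 and 5.37 FPKM with shNT, at 7.36 and 7.50 with shPcyt2-1 and at 12.3 and 9.70 with shPcyt2-2. The groups did not overlap, and it rose by 0.83 with shPcyt2-2 (SE 0.11, limma adjusted p = 0.00536) and was at 0.33 with shPcyt2-1 (95% interval 0.08 to 0.59, limma adjusted p = 0.0586). AGO1, an Argonaute that carries the short RNA, was at 3.45 and 3.32 with shNT, at 4.92 and 5.13 with shPcyt2-1 and at 3.45 and 3.80 with shPcyt2-2. It rose by 0.46 with shPcyt2-1 (SE 0.10, limma adjusted p = 0.0106), and the hairpins differed by -0.38 (limma adjusted p = 0.0188). DROSHA, the nuclear nuclease of microRNA precursors, rose by 0.36 with shPcyt2-1 (limma adjusted p = 0.015). Among other genes of the list, SAMHD1, a nucleotide hydrolase, and PIAS1, a SUMO ligase, rose by 0.41 and 0.38 with shPcyt2-1 (limma adjusted p = 0.0196 and 0.0245). PARP12 fell by 0.26 with shPcyt2-1 (limma adjusted p = 0.0357), and LGALS3BP rose by 0.29 with shPcyt2-2 (limma adjusted p = 0.0448). The calls of AGO1, DROSHA, SAMHD1, PIAS1 and PARP12 with shPcyt2-1 were lost without shNT replicate 2 or either shPcyt2-1 library, and that of LGALS3BP under 8 of 14 alternatives. The call of DICER1 with shPcyt2-2 held without any 1 library but not without the expression limit (limma adjusted p = 0.0631).

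Markers of colorectal epithelium were listed in full, 9 of 9, with KRT8 the most abundant. Their summed level was 8213 and 8772 FPKM with shNT, 8434 and 8527 with shPcyt2-1 and 6261 and 6557 with shPcyt2-2. The lower sums with shPcyt2-2 came with falls of KRT8, KRT18 and KRT19 by 0.41, 0.45 and 0.44 (limma adjusted p = 0.00483, 0.00319 and 0.00546), while CDH17 rose by 0.50 (limma adjusted p = 0.0212). CDX2 fell by 0.65 with shPcyt2-1 (limma adjusted p = 0.00138). Of the 9 epithelial markers, 44.4% were called with shPcyt2-2 and 11.1% with shPcyt2-1, beside 12.4% and 26.7% of all tested genes. Immune markers, whose cells can carry interferon signatures, were listed for 7 of 10, without the defining PTPRC, MS4A1 and TYROBP. Their sum was 25.2 and 22.2 with shNT, 24.1 and 27.5 with shPcyt2-1 and 20.9 and 24.1 with shPcyt2-2, with most of it from CD68 at a mean of 19.5. Of 6 fibroblast markers 5 were listed, without COL3A1, and their sum was 2.25 and 2.44 with shNT, 3.62 and 4.10 with shPcyt2-1 and 3.78 and 3.56 with shPcyt2-2, LUM being the most abundant at a mean of 1.42. With shPcyt2-1 LUM rose by 0.81 (limma adjusted p = 0.00192) and CD8A by 0.47 (limma adjusted p = 0.0238). They were 1 of 2 tested fibroblast and 1 of 5 tested immune markers, where 26.7% of all tested genes were called. Of the 5 tested immune markers, 2 were above 0 and 3 below, and both tested fibroblast markers were above 0. PDGFRB, too low for the test, had a mean of 0.435 FPKM with shNT and 0.267 with shPcyt2-1. The 4 endothelial markers summed to no more than 0.769 FPKM in any library, with CDH5 the most abundant. PTPRC, the defining marker of leukocytes, was thus listed in none of the 6 libraries. The part of the keratin, CD8A and LUM shifts in the results above was not tested. In bulk libraries, fewer cells that express a gene and less RNA of it per cell cannot be told apart.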

How the data were processed

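RNA of SW480 cells was sequenced by a service company according to the study's methods. The aligner, counter and annotation are not given in the sources used here; the labels list GRCh38, GRCm38 and mm10 without roles and name 2 library kits without saying which library each made. The authors deposited 1 table per library of Ensembl identifiers with values read here as FPKM from their size (sums of 396467 to 402612 per library) and may instead be TPM of an incomplete gene set. Depth is unknown. Identifiers not listed in a library were set to 0. Repeated rows were summed (115 of 21539 identifiers), and 999 sets of identifiers sharing identical values, listed in at least 3 libraries, were merged, leaving 19746 genes. Of the members, IFI27, IRF7 and IRF9 had identical values with another identifier. None of the 13 mitochondrial protein-coding genes was listed.

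Genes with a mean of at least 0.5 FPKM (12756) were tested with limma 3.58.1 (R 4.3.3, variance trend) on log2(FPKM + 1) in 3 groups sharing the spread, with Benjamini-Hochberg adjustment over all tested genes. The fit was also run on simulated libraries with independent normal noise. That run checks whether set changes are recovered, not whether the calls made here are right. The study's count-based test needs counts and was not used. Whether replicates were separate cultures is not stated, so p-values measure the spread between these libraries, which may be technical. Positions are from GENCODE release 29 (GRCh38), promoters from RefSeq (GRCh38.p14). The members, lists and tests were chosen with earlier results of these data known. Values in every library were given for members called in any comparison and for 9 classical targets (IFIT1, IFIT2, IFIT3, ISG15, MX1, OAS1, IFIH1, STAT2 and IRF9). From the further list, up to 5 genes called per direction and hairpin were named, with the ligands, DDX58, DHX58, TLR3 and EIF2AK2. Genes listed at or near 0 outside that rule (IFI44, IFI44L, CXCL9, CXCL10, RSAD2, CMPK2, CXCL11 and GBP1), PRKRA, the 6 members whose promoter is shown, and the markers named for their change were chosen after their values were seen. Alternatives were pseudocount 0.1, no expression limit or a limit of 1, a replicate block, each library left out, median-ratio scaling, no variance trend, the highest of repeated rows, only the hairpin and shNT in the fit, and for promoters an ISRE with 1 or 2 spacer bases. One gene of the further list is not reported here.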

Additional observations from a re-analysis of the deposited data

Results flagged for a closer look

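The hairpins differed at a limma adjusted p under 0.05 in 14 of 35 members, where 27.1% of all tested genes were called. The count was 5, 9, 7 and 10 with shPcyt2-1 replicate 1, shPcyt2-1 replicate 2, shPcyt2-2 replicate 1 or shPcyt2-2 replicate 2 left out, in that order. Calls over all genes fell too in these fits. The differences, shPcyt2-2 minus shPcyt2-1 on the log2(FPKM + 1) scale, were 1.91 for IFITM1, 1.16 for IFITM3, 0.70 for IFI6, 0.53 for IFITM2, 0.51 for OASL, 0.47 for UBE2L6, 0.41 for MX1, 0.38 for IRF2, 0.34 for TRIM21 and 0.33 for SP100. They were -0.95 for ISG20, -0.52 for OAS3, -0.38 for STAT2 and -0.30 for IRF3. Among the named genes of the further list they were 0.86 for TBK1, 0.50 for DICER1, 0.40 for IL10RB, 0.31 for TICAM1, 0.25 for PARP12 and -0.38 for AGO1. Of these, only TBK1 kept its call under all 13 alternatives. The call was lost under 6 of them for PARP12, 5 for TICAM1, 3 each for DICER1 and AGO1, and 1 for IL10RB. Each hairpin is its own group, so an effect of the hairpin sequence on other transcripts and a difference between the infected populations cannot be told apart.

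For IFNAR1 the library shPcyt2-2 replicate 1, at 8.8 FPKM, stood apart from the remaining knockdown libraries, the gap being 0.868 of their whole range. This was 1 of 40 members looked at in this way, and chance marks about 1 in 20 groups.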

How the results depend on the processing

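Across the named genes, 47 comparisons were called, and all 47 kept their direction under every alternative run. Of these, 12 also kept their call in each: PCYT2 with both hairpins, IFITM1, IFITM2, IFITM3 and ISG20 with shPcyt2-1, and IFITM1, IFITM2, IFITM3, IFI6, ISG20 and TBK1 between the hairpins. The number of members called with shPcyt2-1, 8, was 5 without the expression limit and from 4 to 8 with each library left out. With shPcyt2-2 the 5 were 0 without the limit, 3 without a variance trend and from 0 to 5 with each library left out. Between the hairpins the 14 were from 5 to 15 with each library left out. The pooled count of 0 was 7 as the mean of both hairpins from 3 groups, where 16.8% of all tested genes were called. Calls over all genes moved too. Without the limit they were 9.27% with shPcyt2-1 and 0.628% with shPcyt2-2, against 26.7% and 12.4% with it. Without a variance trend they were 8.05% with shPcyt2-2. They also moved with each library left out. In a fit without 1 library the lone sample of its group is assumed to vary like the others. Calls became fewer in some of these fits and more numerous in others. The causes of these changes were not tested. Without the expression limit, the calls of IFI6, JAK1, SAMD9, SAMHD1, PIAS1 and PARP12 with shPcyt2-1 were lost. So were those of IFITM2, UBE2L6, SP100, IFI6, JAK1, DICER1, TBK1, IL10RB and LGALS3BP with shPcyt2-2. Between the hairpins, those of OAS3, SP100, TRIM21, IRF2, DICER1, TICAM1 and PARP12 were lost in that fit.

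Among genes that were not called, signs reversed in OAS1 with shPcyt2-1 (0.109 without shNT replicate 2, 0.104 without shPcyt2-1 replicate 1, from -0.153 to 0.109 with each library left out), OAS1 with shPcyt2-2 (from -0.00724 without shNT replicate 1 to 0.255), IFIH1 with shPcyt2-2 (from -0.0673 without shPcyt2-2 replicate 1 to 0.295) and IRF9 with shPcyt2-2 (-0.0192 with median-ratio scaling, from -0.0529 without shNT replicate 2 to 0.0834). Over all genes, 1831 were called with shPcyt2-1 and 124 with shPcyt2-2 without the limit. Whether equal replicate numbers mark a shared batch is not stated and was not tested. Correlations of the replicate 1 deviations were 0.0027 between shNT and shPcyt2-1 and 0.0619 between shNT and shPcyt2-2. Between the hairpins the correlation was 0.191. With the replicate block 9, 5, 14 and 0 members were called with shPcyt2-1, with shPcyt2-2, between the hairpins and pooled. Of all tested genes, 30.4%, 15.9%, 30.3% and 0% were called in the same order, against 26.7%, 12.4%, 27.1% and 0.00784% without the block. An ISRE with 1 or 2 spacer bases was in 59.6% of member windows and 6.4% of all windows.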
